A study of Mus musculus with 30 samples.

Results

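Matricellular proteins are secreted into the extracellular matrix, where they signal to cells through integrins, syndecans and growth factors more than they bear load. The 10 genes described here are Cyr61, Ctgf and Wisp1 of the CCN family, the thrombospondins Thbs1, Thbs4 and Comp, and Postn, Tnc, Sparc and Spp1. They were taken by symbol from the 52550 genes of the count table, and each matched 1 gene. No measured value entered that step, but the choice of these 10 was made with earlier results of these data known. In the adult heart many of them are known to be low at rest and to be made by fibroblasts or stressed myocytes after injury or pressure overload. Transforming growth factor beta and the mechanically regulated factors YAP and MRTF are the classic inputs to their transcription.

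Total RNA of mouse cardiac myocytes was sequenced in 30 libraries, 5 in each of 6 groups. The heterozygous groups carried the genotype Myh6-Cre:DspW/F, in which the Myh6 promoter drives Cre recombinase in cardiac myocytes and 1 allele of Dsp, the gene of the desmosomal protein desmoplakin, is floxed. Each genotype was studied in young mice aged 3 months and in mice aged 6 months, both with regular activity. A further group of each genotype, aged 6 months, had 3 months of endurance running on a treadmill. The labels do not say whether wild types carried Cre, whether animals were pooled, or whether libraries of a group came from separate animals, so p-values measure only the spread between these libraries. The series title describes a desmoplakin haplo-insufficient model of arrhythmogenic cardiomyopathy whose dysregulated expression exercise reverses. The comparisons below are therefore genotype at each age and activity, exercise in each genotype, age in each genotype, and exercised heterozygotes against regular-activity wild types.

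Each library held 11232143 to 23710331 gene counts, of which the 10 genes took 3061 to 18265. Values are given as CPM, counts per 1000000 of the scaled library size, and 3 counts corresponded to 0.114 to 0.251 CPM. The 10 ventricular myocyte markers summed to 73652 to 118736 CPM and the 12 fibroblast markers to 199 to 1153 CPM, with no marker of either list at 0 in any group, so the libraries held RNA of more than myocytes. Dsp averaged 765 ± 213 CPM in heterozygotes and 1079 ± 295 CPM in wild types at 3 months, 626 ± 41.1 and 784 ± 173 CPM at 6 months, and 848 ± 90.5 and 1561 ± 428 CPM after exercise (SD, n = 5 each), a difference that passed the test after exercise (edgeR adjusted p = 0.0287). Counts run over the whole gene, so transcripts of the recombined allele are included. Spike-in entries with a value numbered 3 at 3 months and 0 after exercise in both genotypes. At 6 months with regular activity they numbered 18 in every heterozygote and 11 to 18 in wild types. Separate handling of these sets of libraries cannot be told apart from age and exercise, and at 6 months it may touch genotype. Exercised heterozygote 4 and exercised wild type 1 stood apart from the other libraries of their groups, the second with 46.9% of its counts from the mitochondrial genome, and results that rest on them are given with and without them. Wild type 4 at 3 months and wild types 2 and 5 at 6 months held both Xist and Y-linked reads. Every group mixed libraries with mainly Xist and libraries with mainly Y-linked reads, and sex was not in the fits. In the exercised groups only heterozygote 4 and wild type 5 held mainly Xist reads.

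RefSeq promoter windows on GRCm38.p6, of 250 bases before and 50 after the first transcribed base, were found for 6 of the 10 genes. The upstream 250 bases are shown for Cyr61, the member called in the most comparisons, and for Postn and Tnc, whose values at 6 months did not overlap between genotypes. They are printed 5′ to 3′ on the gene's strand, with matches to TATAAA (the TATA box) and, for Cyr61, to the TEAD motif GGAATG, here as its reverse complement CATTCC, in capitals.
Cyr61, chr3:145649986-145650235, minus strand: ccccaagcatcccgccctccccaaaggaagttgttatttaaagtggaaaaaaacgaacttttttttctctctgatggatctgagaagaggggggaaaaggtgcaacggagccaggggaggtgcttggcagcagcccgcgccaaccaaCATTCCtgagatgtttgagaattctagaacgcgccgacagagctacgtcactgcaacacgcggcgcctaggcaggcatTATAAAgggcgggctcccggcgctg
Postn, chr3:54360857-54361106, plus strand: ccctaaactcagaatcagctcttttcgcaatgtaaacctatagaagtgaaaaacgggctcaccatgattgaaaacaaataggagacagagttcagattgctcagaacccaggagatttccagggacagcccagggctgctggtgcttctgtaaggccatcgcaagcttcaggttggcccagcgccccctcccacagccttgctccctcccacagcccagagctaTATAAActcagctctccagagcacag
Tnc, chr4:64047016-64047265, minus strand: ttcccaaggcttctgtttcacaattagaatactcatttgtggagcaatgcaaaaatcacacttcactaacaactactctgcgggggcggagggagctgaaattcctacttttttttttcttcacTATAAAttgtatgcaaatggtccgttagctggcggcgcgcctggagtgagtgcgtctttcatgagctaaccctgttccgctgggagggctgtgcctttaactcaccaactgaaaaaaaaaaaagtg

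TEAD proteins are the DNA-binding partners of YAP. In Cyr61 the TEAD match lay at -103 to -98 and a TATAAA at -25 to -20, counted from the first transcribed base. Postn held a TATAAA at nearly the same place, -26 to -21, whereas that of Tnc lay at -126 to -121, and Tnc held the SMAD motif CAGACA on the minus strand at 9 to 14. Thbs4 had 2 overlapping TEAD matches, starting at -197 and -192, and Thbs4 and Spp1 each had a SMAD match. Sparc had SMAD matches at -36 to -31 and at 15 to 20, and Spp1 a TATAAA at -211 to -206. Neither the AP-1 motif TGANTCA nor the CArG box bound by SRF was in any of the 6 windows. Searched on both strands, GGAATG was in 14.7%, CAGACA in 21.0%, TGANTCA in 7.81%, TATAAA in 13.6% and the CArG box in 1.63% of all 32851 windows of this length, so single matches are common. The Sparc window starts 3103 bases from the start in the annotation used for its length.

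Levels differed widely between the genes. Per kilobase of exon, Cyr61 averaged 176 CPM per kb over the 30 libraries, followed by Sparc at 35.7 and Ctgf at 18.6 CPM per kb. Thbs4 at 1.99, Postn at 1.41, Thbs1 at 1.40 and Wisp1 at 0.880 CPM per kb formed a second tier. Comp at 0.289, Tnc at 0.249 and Spp1 at 0.138 CPM per kb were lowest, and Spp1 was the 1 member too low for the tests. When the 6 group means of a gene were ordered by level, neighbouring groups overlapped in their libraries for every gene, with the exception of Postn in heterozygotes and wild types at 6 months with regular activity.

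**Figure D1:**
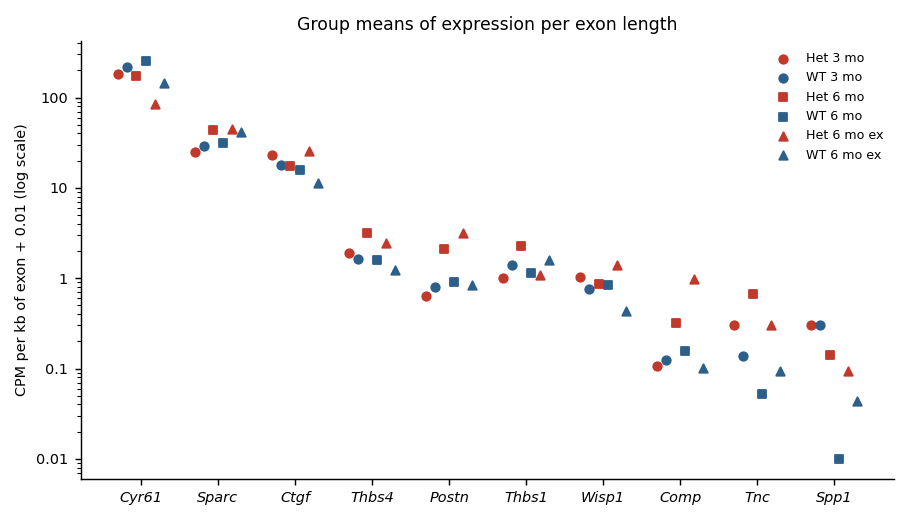
Group means of the 10 genes in CPM per kilobase of exon, with 0.01 added, on a log axis. Cyr61 averaged 176 CPM per kb over all libraries and Spp1 0.138 CPM per kb.

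Cyr61, the founding CCN protein and an immediate-early gene that binds integrins, was lower after exercise in both genotypes. The gene (ENSMUSG00000028195) lies at chromosome 3, 145646976 to 145649981 on the minus strand. Exercised heterozygotes held 115, 169, 189.9, 183 and 194 CPM, against 227, 458, 231, 456 and 359 CPM in heterozygotes with regular activity. Exercised wild types held 135, 396, 280.2, 310.2 and 342 CPM, against 540.1, 696, 499.8, 424 and 426 CPM in wild types with regular activity. In each genotype every exercised library lay below every library of the group with regular activity. Cyr61 fell by 1.03 on the log2 scale in heterozygotes (SE 0.229, edgeR adjusted p = 0.00467) and by 0.82 in wild types (SE 0.228, adjusted p = 0.0200).

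In heterozygotes, 1 of the 9 tested members was called with exercise, where 8.82% of all tested genes were called and 4.02% did not overlap and were lower. In wild types it was also 1 of 9, against 9.69% called and 5.58% without overlap and lower among all tested genes. The call in heterozygotes held with each of the 10 libraries left out in turn (adjusted p 0.00228 to 0.0204). The call in wild types did not hold in a fit of these 2 groups alone (adjusted p = 0.0581), without the filter on low counts (adjusted p = 0.0625), without wild type 2 at 6 months (adjusted p = 0.0701), or without the 3 libraries that held both Xist and Y-linked reads (log2 difference -0.74, adjusted p = 0.103).

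The difference between genotypes in Cyr61 pointed down in all 3 settings, and edgeR with all libraries called it in none. It averaged 364 ± 56.9 CPM in heterozygotes and 442 ± 84.8 CPM in wild types at 3 months, with a log2 difference of -0.28 (adjusted p = 0.683). The means were 346 ± 114 and 517 ± 112 CPM at 6 months with regular activity (-0.58, SE 0.227, adjusted p = 0.435). After exercise they were 170.1 ± 32.1 CPM in heterozygotes and 293 ± 97.9 CPM in wild types (-0.78, SE 0.228, adjusted p = 0.142). Both other tools called this last difference, limma-voom with quality weights (adjusted p = 0.0275) and DESeq2 (adjusted p = 0.0325). Without exercised wild type 1, whose 135 CPM was the lowest of its group, the last difference was -0.98 and passed the test (adjusted p = 0.0121), as it did with exercised heterozygote 4 left out as well (-0.99, adjusted p = 0.0424). The interaction of genotype with exercise was -0.20 ± 0.321 (SE, adjusted p = 0.999).

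Exercised heterozygotes were also set against wild types with regular activity, which shows genotype and exercise together. Their Cyr61 means were 170.1 ± 32.1 and 517 ± 112 CPM, and all 10 libraries were separated. The fall of 1.60 on the log2 scale (SE 0.232, edgeR adjusted p = 3.21e-05) was the 1 call among the 9 tested members, where 13.1% of all tested genes were called. Without overlap, 6.67% of tested genes were lower and 5.5% were higher in this comparison.

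**Figure D2:**
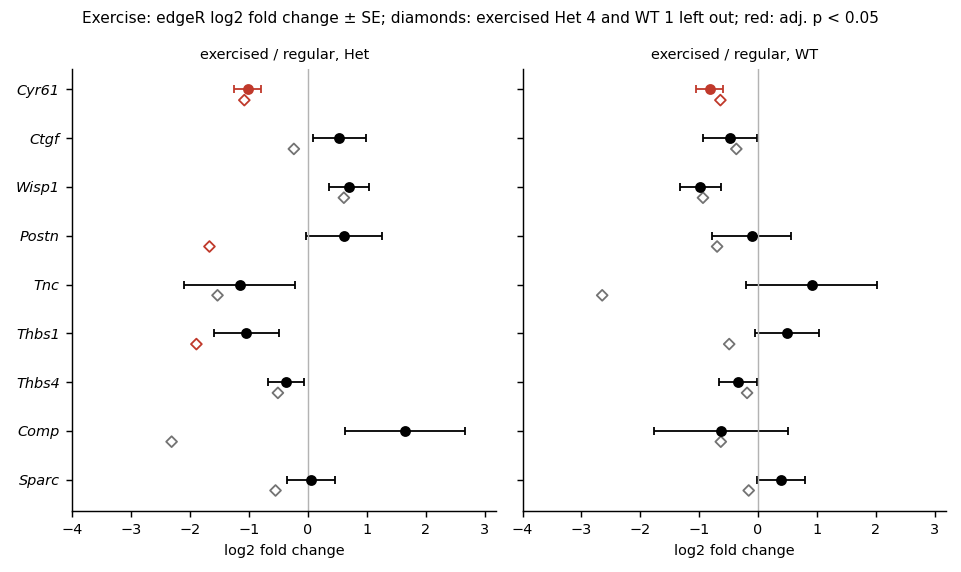
Log2 difference between exercised and regular-activity libraries of the same genotype for the 9 tested members, with bars of 1 SE. Red marks an adjusted p under 0.05, and diamonds give the value without exercised heterozygote 4 and exercised wild type 1. Cyr61 is below 0 in both genotypes, and Postn and Thbs1 in heterozygotes lie below 0 without heterozygote 4.

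Wisp1, a CCN protein induced by WNT signalling (ENSMUSG00000005124, chromosome 15, 66891320 to 66923201, plus strand), was higher in exercised heterozygotes than in exercised wild types. Exercised heterozygotes held 3.52, 11.8, 5.8, 9.11 and 8.42 CPM, against 2.01, 2.07, 1.46, 2.34 and 3.97 CPM in exercised wild types. The groups overlapped by 1 library, since the lowest heterozygote lay under the highest wild type. Wisp1 rose by 1.71 on the log2 scale (SE 0.355, edgeR adjusted p = 0.0166), the 1 call among the 9 tested members against 0.404% of all tested genes. The call did not hold without heterozygote 2 (adjusted p = 0.0656) or 4 (0.0567), or without wild type 2 (0.0656), 3 (0.0726) or 4 (0.0613). It was also lost in a fit of these 2 groups alone (adjusted p = 0.100) and without exercised heterozygote 4 and exercised wild type 1 together (adjusted p = 0.0794).

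With regular activity the genotypes did not differ beyond their spread in Wisp1. The means were 4.73 ± 2.44 CPM in heterozygotes and 4.67 ± 1.78 CPM in wild types at 6 months (log2 difference 0.02, adjusted p = 0.994), and 5.74 ± 2.30 and 4.16 ± 0.941 CPM at 3 months (0.47, adjusted p = 0.638). Exercise went with a higher mean in heterozygotes, 7.72 ± 3.16 against 4.73 ± 2.44 CPM (0.70, adjusted p = 0.210), and a lower one in wild types, 2.37 ± 0.950 against 4.67 ± 1.78 CPM (-0.98, adjusted p = 0.0740). The difference between these responses was 1.69 ± 0.487 on the log2 scale (SE, unadjusted p = 0.00152, adjusted p = 0.553). None of the 9 members was called in this interaction by edgeR, DESeq2 or limma-voom, and edgeR called 0.0128% of all tested genes. An unadjusted edgeR p under 0.05 was reached by 1 of the 9 members and by 4.91% of all tested genes.

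Ctgf, the connective tissue growth factor and a target of both SMAD and YAP, gave no call in any comparison. The gene (ENSMUSG00000019997) lies at chromosome 10, 24595442 to 24598683 on the plus strand, and 665 bases of its exons overlap Gm15270 on the other strand. Libraries ran from 36.7 to 71.2 CPM in heterozygotes and from 22.1 to 106 CPM in wild types at 6 months with regular activity. After exercise 4 heterozygotes lay at 37.1 to 55.0 CPM and heterozygote 4 at 191 CPM, against 23.0 to 46.8 CPM in wild types. The genotypes overlapped in both settings.

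**Figure D3:**
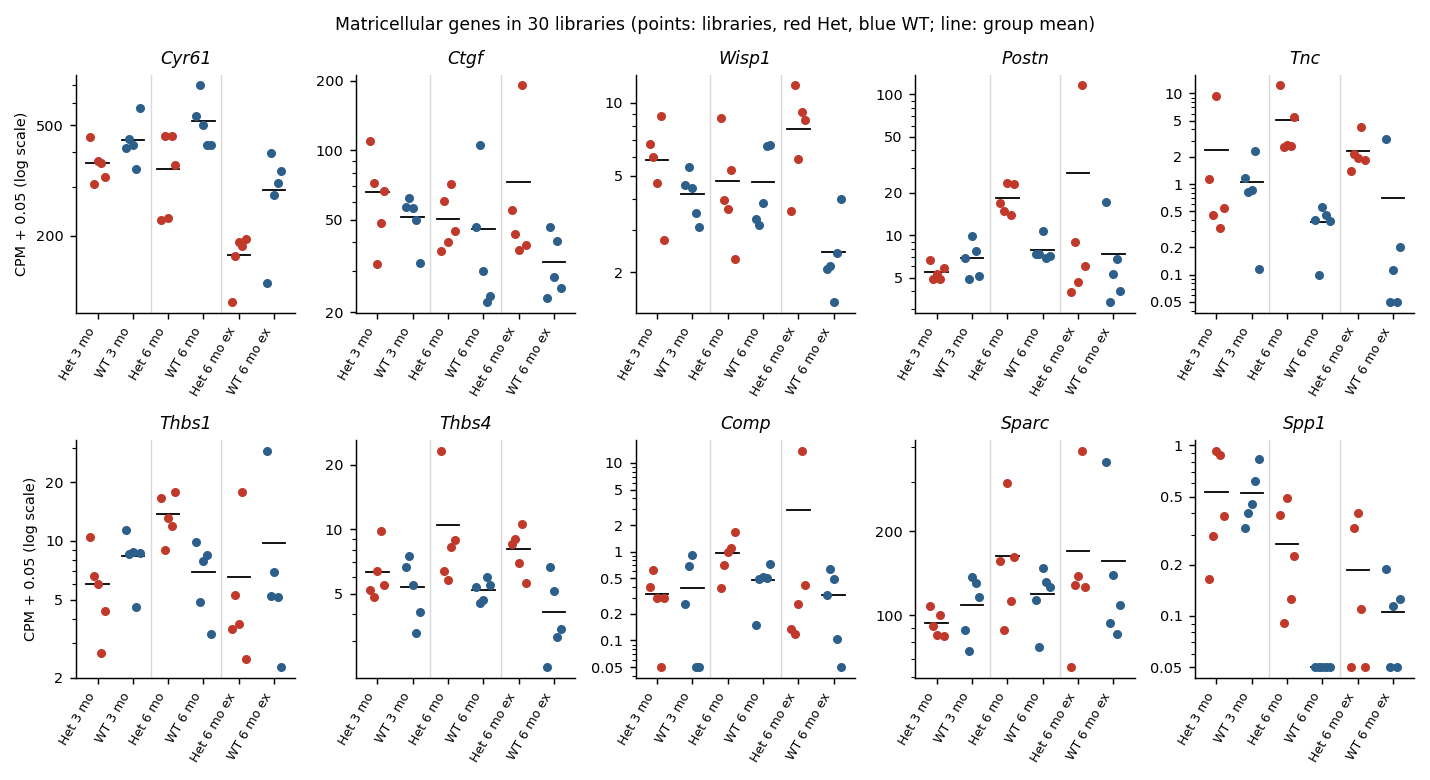
CPM plus 0.05 of each of the 10 genes in the 30 libraries, on a log axis, by group, with heterozygotes in red and wild types in blue and a line at each mean. Cyr61 is lower in both exercised groups, and exercised heterozygote 4 lies far above its group for Postn (116 CPM) and Comp (13.7 CPM).

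Postn encodes periostin, a matrix protein of activated fibroblasts that promotes collagen crosslinking. At 6 months with regular activity its 5 heterozygous libraries lay at 16.8, 14.7, 23.2, 13.9 and 22.9 CPM, against 7.34, 7.26, 10.6, 6.82 and 7.12 CPM in wild types. The lowest heterozygote was above the highest wild type. At 3 months the values were 6.61, 4.86, 5.23, 4.82 and 5.84 CPM in heterozygotes and 6.82, 4.88, 9.85, 7.69 and 5.11 CPM in wild types, which overlapped. The gene (ENSMUSG00000027750) lies at chromosome 3, 54361109 to 54391037 on the plus strand.

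Tnc encodes tenascin C, a glycoprotein of remodelling matrix that is nearly silent in the healthy adult heart. At 6 months its heterozygous libraries lay at 12.2, 2.49, 2.66, 2.55 and 5.43 CPM, against 0.352, 0.0497, 0.51, 0.407 and 0.339 CPM in wild types. In counts this was 48 to 289 reads in heterozygotes and 1 to 13 in wild types, again with no overlap. The gene (ENSMUSG00000028364) lies at chromosome 4, 63959785 to 64047015 on the minus strand, with 176 bases of exon shared with 8030451A03Rik on the other strand.

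Neither difference passed the test over all genes. At 6 months it was 1.22 on the log2 scale for Postn (SE 0.662, edgeR adjusted p = 0.633) and 3.89 for Tnc (SE 1.08, unadjusted p = 0.00135, adjusted p = 0.241). None of the 9 tested members was called by edgeR, with 0.135% of all tested genes called. Of the 9, 3 had an unadjusted edgeR p under 0.05, as did 8.79% of all tested genes. They were Tnc, Thbs4 and Cyr61, which was lower in heterozygotes, while Postn had an unadjusted edgeR p of 0.0774. Postn and Tnc were the 2 that did not overlap and were higher, as were 1.86% of all tested genes. With limma-voom and sample quality weights Postn, Tnc and Thbs1 were called, where 3.1% of tested genes were, and with DESeq2 Tnc was called. In a fit of these 2 groups alone, Postn and Tnc were called, against 1.51% of tested genes.

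Markers of several other cell types, but not all, also averaged higher in heterozygotes at 6 months with regular activity. All 12 fibroblast markers averaged higher in heterozygotes, with a median log2 difference of 0.70, and their sums were 619 to 982 CPM in heterozygotes and 403 to 498 CPM in wild types. All 12 tested macrophage markers did so too, with sums of 56.4 to 111 CPM in heterozygotes and 20.3 to 36.4 CPM in wild types. All 9 tested activated fibroblast markers were above 0, but the sums overlapped, at 186 to 471 CPM in heterozygotes and 127 to 387 CPM in wild types. Endothelial (10 of 10), smooth muscle and pericyte (8 of 9) and tendon and cartilage markers (2 of 2) were mostly above 0. Epicardial (5 of 6) and lymphocyte and platelet markers (2 of 3) were mostly below 0. None of these markers was called. In bulk RNA, more cells of a type and more RNA per cell cannot be told apart, and the part of these cells in the values of Postn and Tnc was not tested.

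**Figure D4:**
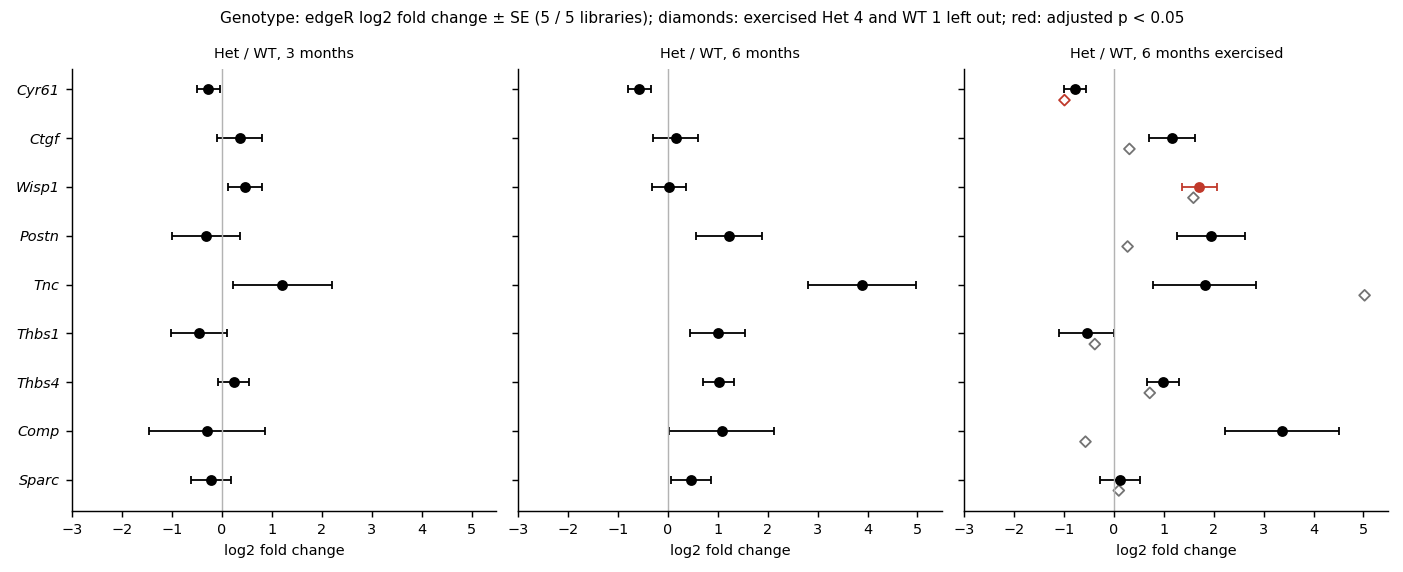
Log2 difference between heterozygotes and wild types for the 9 tested members at 3 months, at 6 months and at 6 months with exercise, with bars of 1 SE. Red marks an adjusted p under 0.05, and diamonds leave out exercised heterozygote 4 and exercised wild type 1. At 6 months with regular activity 8 of the 9 values are above 0, with Tnc at 3.89, and Cyr61 is at -0.58.

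With age, Postn in heterozygotes showed the same kind of separation. The 6-month mean was 18.3 ± 4.46 CPM and the 3-month mean 5.47 ± 0.758 CPM, with every 6-month library above every 3-month one, and a log2 difference of 1.73 (SE 0.683, edgeR adjusted p = 0.154). In wild types the means were 7.83 ± 1.56 and 6.87 ± 2.04 CPM. The difference between the 2 age effects was 1.54 ± 0.952 (SE, adjusted p = 0.708). In heterozygotes 0 of the 9 members were called with age by edgeR and by DESeq2, limma-voom called Postn, and edgeR called 3.43% of all tested genes. An unadjusted p under 0.05 was reached by 3 of the 9, and by 19.6% of all tested genes. Postn was the 1 member without overlap, as were 4.4% of tested genes that were higher. In a fit of these 2 groups alone Postn and Thbs1 were called, against 4.65% of tested genes. In the same comparison 12 of 12 fibroblast markers were above 0 and 6 of them rose.

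For age in wild types, the interaction of genotype with age, and genotype at 3 months, edgeR over all libraries, DESeq2 and limma-voom called no tested member, and 0 tested members had an unadjusted p under 0.05. Fitted on its 4 groups alone, the age interaction called Postn (adjusted p = 0.0448), and without the low-count filter age in wild types called Spp1 (adjusted p = 0.0137). Of all tested genes edgeR called 0.86% for age in wild types, 0% in the interaction and 0.192% for genotype at 3 months. Tnc at 3 months averaged 2.30 ± 3.90 CPM in heterozygotes and 1.00 ± 0.805 CPM in wild types (1.21, SE 0.988, adjusted p = 0.684). That mean rested on heterozygote 3 at 9.26 CPM, since the other 4 lay between 0.275 and 1.08 CPM.

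After exercise the Postn values overlapped between genotypes. Exercised heterozygotes held 3.94, 8.85, 4.62, 116 and 5.98 CPM, against 17.2, 3.32, 5.27, 6.77 and 3.97 CPM in exercised wild types. Leaving out the highest library of each, the means were 5.85 ± 2.18 CPM in heterozygotes and 4.83 ± 1.52 CPM in wild types (n = 4 each). The log2 difference was 1.94 over all libraries (SE 0.679, adjusted p = 0.274) and -0.32 without heterozygote 4 alone. It was 0.27 without both heterozygote 4 and wild type 1.

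Against heterozygotes with regular activity, the effect of exercise on Postn turned on the same library. It was 0.61 with all libraries (SE 0.647, edgeR adjusted p = 0.655) and -1.64 without exercised heterozygote 4 (adjusted p = 0.00206). The 4 other exercised heterozygotes, at 3.94 to 8.85 CPM, all lay below the 13.9 to 23.2 CPM of heterozygotes with regular activity. Thbs1 had -1.05 over all libraries (adjusted p = 0.269) and -1.87 without that library (adjusted p = 0.0295). Without it, 3 members were called (Postn, Thbs1 and Cyr61), where 8.94% of tested genes were. The fibroblast markers summed to 238 to 353 CPM in those 4 exercised heterozygotes, against 619 to 982 CPM with regular activity, and the part of this in the result was not tested.

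Tnc after exercise was above the wild-type level in most heterozygotes. Exercised heterozygotes held 1.34, 2.07, 1.89, 4.2 and 1.77 CPM, against 3.05, 0, 0.0635, 0 and 0.153 CPM in exercised wild types. Each heterozygote lay above 4 of the 5 wild types, which held near no reads, while wild type 1 lay above 4 of the 5 heterozygotes. The log2 difference was 1.82 (edgeR adjusted p = 0.612). Without wild type 1 it was 5.36 (adjusted p = 0.0357), and Tnc, Cyr61 and Wisp1 were called in a comparison in which 0.558% of tested genes were. With exercised heterozygote 4 left out as well, it was 5.02 (adjusted p = 0.0958), and 0.277% of tested genes were called.

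Set against wild types with regular activity, exercised heterozygotes had a higher Tnc, 2.25 ± 1.12 against 0.332 ± 0.171 CPM. All 10 libraries were separated and the log2 difference was 2.73 (SE 1.07, edgeR adjusted p = 0.0952). It was called in a fit of these 2 groups alone (adjusted p = 0.00239), where 14.6% of tested genes were. Tnc was also called by limma-voom (adjusted p = 0.0209), where 19.7% of tested genes were, but not by DESeq2. Tnc was the 1 member without overlap that was higher in this comparison. In the effect of exercise within heterozygotes the means were 2.25 ± 1.12 CPM with exercise and 5.07 ± 4.19 CPM without (-1.16, adjusted p = 0.534).

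Among the thrombospondins, Thbs4, which is known to act in the stress response of the myocyte endoplasmic reticulum, was higher in most heterozygotes at 6 months. At 6 months heterozygotes held 23.2, 6.33, 5.77, 8.18 and 8.82 CPM, against 5.33, 4.48, 4.63, 5.95 and 5.43 CPM in wild types. After exercise they held 8.46, 8.92, 6.92, 10.5 and 5.54 CPM, against 2.22, 6.57, 5.08, 3.09 and 3.36 CPM in wild types. In each pair 1 heterozygote lay within the range of the wild types. The log2 differences were 1.02 (SE 0.311, edgeR adjusted p = 0.283) and 0.98 (SE 0.319, adjusted p = 0.205). Without heterozygote 1, the highest at 6 months, the first was 0.49 (adjusted p = 0.701), and without exercised heterozygote 4 and exercised wild type 1 the second was 0.72 (adjusted p = 0.609). The gene (ENSMUSG00000021702) lies at chromosome 13, 92751590 to 92794818 on the minus strand.

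Thbs1, an activator of latent transforming growth factor beta (ENSMUSG00000040152, chromosome 2, 118111876 to 118127133, plus strand), shares 208 bases of exon with Gm29233 on the other strand. At 6 months it held 16.6, 8.98, 13.0, 11.8 and 17.8 CPM in heterozygotes, against 9.81, 4.82, 7.88, 8.45 and 3.29 CPM in wild types. The groups overlapped by 1 library, and the log2 difference was 0.99 (SE 0.543, adjusted p = 0.637). After exercise it held 3.52, 5.25, 3.71, 17.7 and 2.44 CPM in heterozygotes and 28.9, 5.21, 6.86, 5.12 and 2.22 CPM in wild types. Here the highest value of each group came from the library that stood apart.

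Comp, the cartilage oligomeric matrix protein (ENSMUSG00000031849), was close to the limit of detection in most libraries. At 6 months heterozygotes held 0.339 to 1.63 CPM and wild types 0.101 to 0.678 CPM (log2 difference 1.08, adjusted p = 0.845). Exercised heterozygote 4 held 13.7 CPM, from 232 counts, and the other 4 exercised heterozygotes 1 to 5 counts each. The difference after exercise, 3.37 with all libraries (adjusted p = 0.242), was -0.57 without that library. The gene lies at chromosome 8, 70373558 to 70382066 on the plus strand.

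Sparc encodes osteonectin, a collagen-binding protein that assists fibril assembly (ENSMUSG00000018593, chromosome 11, 55394500 to 55423183, minus strand). It was abundant and overlapped between groups in every comparison. At 6 months it held 157, 88.5, 298, 112 and 162 CPM in heterozygotes and 113, 77.0, 148, 131 and 126 CPM in wild types (log2 difference 0.46, SE 0.403, adjusted p = 0.819). After exercise it held 65.1, 128, 139, 389 and 126 CPM in heterozygotes and 355, 93.7, 139.6, 86.0 and 108 CPM in wild types (0.11, adjusted p = 0.971).

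Spp1, osteopontin, a cytokine-like matrix protein of macrophages and injured hearts, was read at most 14 times in a library. At 6 months the heterozygous libraries held 8, 1, 8, 2 and 3 counts, and none of the 5 wild types held a read. With a floor of 3 counts over the wild-type group, the pooled heterozygous level, from 22 reads, was 7.08-fold that floor. The spread of the heterozygous counts does not enter this value, so it is not a lower bound. It did not pass the filter. In an edgeR fit without the filter the adjusted p was 0.223 here, 0.0402 for exercised heterozygotes against wild types with regular activity and 0.0137 for age in wild types, and the fitted folds against a group at 0 depend on the prior count. At 3 months both genotypes had reads in every library, 3 to 14 counts in heterozygotes and 4 to 12 in wild types. Exercised heterozygotes held 0 to 5 counts and exercised wild types 0 to 2. The gene (ENSMUSG00000029304) lies at chromosome 5, 104435118 to 104441050 on the plus strand and shares 309 bases of exon with Gm42793 on the same strand.

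Exercised heterozygote 4 was the highest library of its group for Postn, Tnc, Comp, Thbs1, Thbs4, Sparc and Ctgf. It held 223 CPM of Xist and 0.0591 CPM of Y-linked reads, against 0.167 to 0.899 CPM and 158 to 182 CPM in the other 4. It thus differed from them in sex too. Its markers of other cells differed as well. The fibroblast sum was 1153 CPM there and 238 to 353 CPM in the other 4, the macrophage sum 144 and 20.5 to 41.0 CPM, the activated fibroblast sum 587 and 121 to 183 CPM, and the tendon and cartilage sum 20.8 and 6.22 to 8.54 CPM. The smooth muscle and pericyte sum was lower, 851 against 955 to 1169 CPM. Exercised wild type 1 was the highest of its group for Postn, Tnc, Thbs1 and Sparc and the lowest for Cyr61, Ctgf and Thbs4, with a fibroblast sum of 739 CPM against 199 to 370 CPM and an endothelial sum of 1284 CPM against 301.5 to 475 CPM in the other 4. The part of these cells, or of sex, in the values was not tested.

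**Figure D5:**
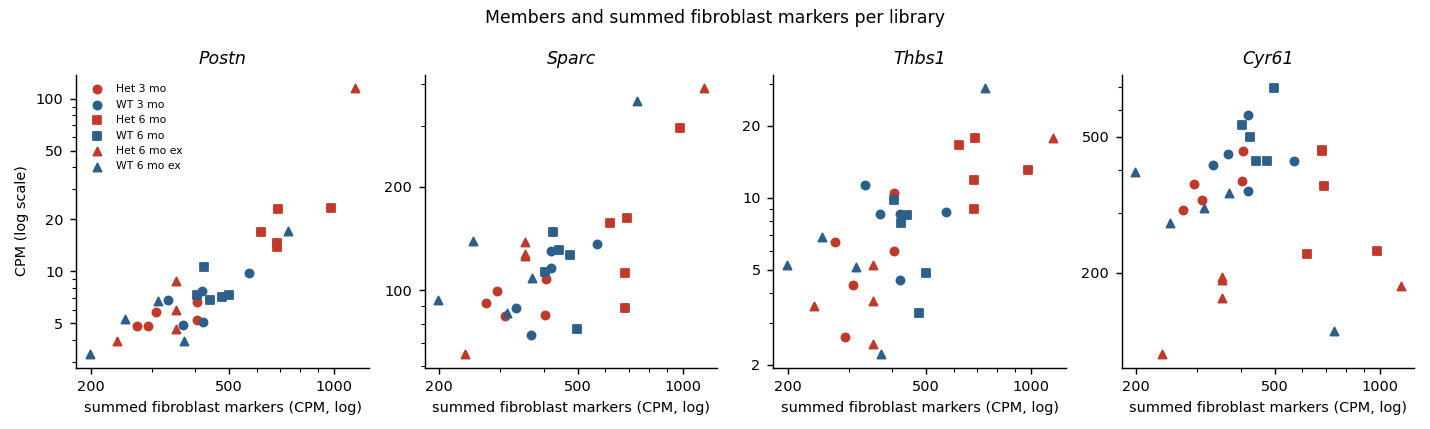
CPM of Postn, Sparc, Thbs1 and Cyr61 against the summed CPM of 12 fibroblast markers in the 30 libraries, both on log axes. The library with the highest sum, 1153 CPM, is exercised heterozygote 4, which also has the highest Postn (116 CPM) and Sparc (389 CPM).

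Over the 9 tested members, differences leaned to higher values in heterozygotes at 6 months. With regular activity 8 were above 0 and 1 below, with a median log2 difference of 0.99, and after exercise 7 and 2, with a median of 1.16. At 3 months 4 were above and 5 below, with a median of -0.22, while the median over all tested genes was -0.0019 at 3 months, -0.0035 at 6 months and -0.0081 after exercise. An unadjusted p under 0.05 was reached by 0 members at 3 months, 3 at 6 months and 6 after exercise, where 11.05%, 8.79% and 9.78% of all tested genes reached it. Cyr61, which was lower in heterozygotes, was among the 3 and among the 6. Postn and Comp were also among the 6, with 1.94 and 3.37, but had -0.32 and -0.57 without exercised heterozygote 4. Without exercised wild type 1 as well, Postn had 0.27. Ctgf was among the 6 too, with 1.16, and its lowest value with a single library left out was 0.41. Exercised heterozygote 4 held 191 CPM of Ctgf and the other exercised heterozygotes 37.1 to 55.0 CPM. Without exercised heterozygote 4 and exercised wild type 1 the values after exercise were 6 above and 3 below, with a median of 0.27. Exercise itself gave medians of 0.05 in heterozygotes and -0.34 in wild types, and without those 2 libraries -1.08 in heterozygotes, with 8 of 9 below 0, and -0.63 in wild types, with 9 of 9 below 0. These comparisons share groups.

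Other genes of the same families, of their receptors and of their upstream pathways gave no call between genotypes in any of the 3 settings. Of 20 further matricellular family genes 15 were tested, and 12 were above 0 in heterozygotes at 6 months, with a median log2 difference of 0.50. Among them Fbln5, which organises elastic fibres, had 0.98 (edgeR adjusted p = 0.435), and Lum, a collagen-binding proteoglycan, had 0.93 (adjusted p = 0.546) with no overlap. With age in heterozygotes 4 of the 15 rose, where 1.46% of all tested genes were called higher. Among them were Tnxb, a tenascin of connective tissue, by 1.18 (adjusted p = 0.00999) and Lum by 1.82 (adjusted p = 0.0221). Smoc2, a relative of Sparc, was the 1 of the 15 that changed with exercise, and fell by 1.00 in heterozygotes (adjusted p = 0.00679) and by 0.88 in wild types (adjusted p = 0.0157). Of all tested genes 8.82% were called with exercise in heterozygotes and 9.69% in wild types.

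Receptors of these proteins, such as integrins, syndecans and Cd44, were measured for 20 of 21 genes, and none was called in any of the 10 comparisons. At 6 months 18 of the 20 were above 0 in heterozygotes, with a median of 0.26. Of the inputs from transforming growth factor beta, YAP and MRTF, 20 of 21 were tested. Tead1, a DNA-binding partner of YAP, rose with exercise by 0.66 in heterozygotes (adjusted p = 0.000658) and by 0.58 in wild types (adjusted p = 0.00200). Tgfb2, a ligand of the pathway, rose by 2.06 in exercised heterozygotes against wild types with regular activity (adjusted p = 0.000577). Exercised heterozygote 4 held 70.9 CPM of Tgfb2 and the other exercised heterozygotes 9.72 to 18.9 CPM, and without that library the rise was 1.14 (adjusted p = 0.000984). Tgfb2 also did not overlap between genotypes after exercise (1.54, adjusted p = 0.0706, and 0.61 without that library, adjusted p = 0.442) or at 6 months with regular activity (1.04, adjusted p = 0.388).

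Of 16 further target genes of these pathways 14 were tested. With exercise Bmp1, a procollagen protease, fell by 0.43 in heterozygotes (adjusted p = 0.0274) and by 0.56 in wild types (adjusted p = 0.00394). Ankrd1, a stress-responsive gene of the myocyte that YAP can induce, had a log2 difference of 1.23 between genotypes at 6 months (adjusted p = 0.377).

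Likeness to other genes was described by Pearson's r over 30 libraries with the group means removed, in which the points share depth and cell makeup. Postn was most like the collagen gene Col1a2 (r = 0.933, and 0.846 without exercised heterozygote 4) and the proteoglycan gene Bgn (0.897 and 0.783). Sparc was most like Anxa2 (0.910) and Cd34 (0.906), a marker of endothelial cells and fibroblasts. Cyr61 stood with the stress-responsive genes Gadd45g (0.774) and Txnip (0.771). The highest values were 0.744 for Tnc, with Hrh2, and 0.736 for Wisp1, with Pirt.

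Among the members themselves, Postn and Sparc had r = 0.784 (0.733 without exercised heterozygote 4), Postn and Thbs1 0.698, and Thbs1 and Sparc 0.624. Cyr61 had its lowest values with Tnc (-0.541) and Sparc (-0.446) and its highest with Ctgf (0.388), and lay near 0 with Comp (0.072), Thbs4 (0.038) and Wisp1 (0.0075). Over the 6 group means alone, Postn was most like the macrophage receptor genes Cx3cr1 (0.991) and Csf1r (0.990), and Cyr61 most like Prr29 (0.999) and the immediate-early gene Atf3 (0.994). With 6 points many genes reach such values.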

How the data were processed

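Total RNA of cardiac myocytes was sequenced in 30 libraries. Per the labels' protocols, ribosomal RNA was depleted and the libraries were paired-end and kept strand. Per the submitters' processing notes, reads were handled with featureCounts, HISAT2 and Trim Galore on mm10, with no version or setting named. The strand setting and annotation are not given in the sources used here, so reads of overlapping genes could be shared. The authors deposited 1 table with raw counts of every library for 52573 entries, of which 23 were spike-in controls and were not analysed as genes.

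After filterByExpr across all groups 15587 genes remained, among them 9 of the 10 members, and counts were scaled by TMM. CPM values are counts per 1000000 of the scaled library size, and 2 is the prior count in log2 CPM. Tests used edgeR 4.0.16 in R 4.3.3 (the quasi-likelihood F test, robust) and, for alternatives, limma 3.58.1 and DESeq2 1.42.0. The fit ran over all 30 libraries with 24 residual degrees of freedom, with Benjamini-Hochberg adjustment over all tested genes and calls at an adjusted p under 0.05. It was tested on simulated data. The SE was taken from the log2 difference and the root of F, with n = 5 per group unless given otherwise. Alternatives are listed in the closing section. Positions and exon lengths came from GENCODE M21 on GRCm38, and promoters from RefSeq.

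Groups followed the titles, and replicate numbers did not pair libraries between genotypes. The members and the gene lists were chosen with earlier results of these data known. Named genes were the 10 members, the genes of 4 lists with the smallest p (up to 4 in a genotype comparison, 2 otherwise), the 2 genes most like each tested member, and Dsp. Not every gene this rule takes is reported here. The motif TATAAA was added after the sequences were seen. The library sizes limit precision for Comp, Tnc and Spp1, where a few reads decide a value. Protein sequences were not used here.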

Additional observations from a re-analysis of the deposited data

Results flagged for a closer look

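In 13 of the 60 sets of 5 libraries, 1 library lay far from the other 4 of its group by Dixon's criterion, which chance gives in about 1 in 20. Exercised heterozygote 4 accounted for 6 of them, with Postn at 115.6 CPM (next highest 8.85), Tnc at 4.20 (2.07), Comp at 13.7 (0.369), Thbs1 at 17.7 (5.25), Sparc at 388.7 (139) and Ctgf at 190.9 CPM (55.0). Exercised wild type 1 accounted for 4, with Postn at 17.2 CPM (next highest 6.77), Tnc at 3.05 (0.153), Thbs1 at 28.9 (6.86) and Sparc at 355.3 CPM (139.6).

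The other 3 were in libraries with regular activity. Postn in wild type 3 at 6 months had 10.6 CPM, against 6.82 to 7.34 CPM in the other 4. Tnc in heterozygote 3 at 3 months had 9.26 CPM, against 0.275 to 1.08 CPM in the other 4. Thbs4 in heterozygote 1 at 6 months had 23.2 CPM, against 5.77 to 8.82 CPM in the other 4.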

How the results depend on the processing

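Over the 9 tested members and 10 comparisons, DESeq2 size factors and leaving out the mitochondrial genome changed no direction and no call. Counts of called members moved as follows, each with the share of all tested genes called in that fit. Fits of the compared groups alone called 2 members for genotype at 6 months (1.51%), 0 for genotype with exercise (0.0951%), 0 for exercise in wild types (11.9%), 3 for exercised heterozygotes against regular-activity wild types (14.6%), 2 for age in heterozygotes (4.65%) and 1 for the age interaction (0.0331%). With limma-voom weights the counts were 3 for genotype at 6 months (3.1%), 2 for genotype with exercise (1.21%), 3 for exercise in heterozygotes (18.5%), 3 for exercised heterozygotes against wild types (19.7%) and 1 for age in heterozygotes (9.1%). DESeq2's Wald test called 1 member for genotype at 6 months (0.359%), 2 for genotype with exercise (1.28%), 2 for exercise in wild types (16.3%) and 3 for exercised heterozygotes against wild types (16.8%). Without the low-count filter they were 0 for exercise in wild types (3.13%), 2 for exercised heterozygotes against wild types (4.6%) and 1 for age in wild types (0.315%).

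The other 2 settings were chosen after seeing the data. Without exercised heterozygote 4 and exercised wild type 1, 3 members were called for exercise in heterozygotes (10.2%) and 2 for exercised heterozygotes against wild types (11.1%). Without the 3 libraries with both Xist and Y-linked reads, 0 were called for exercise in wild types (3.93%). Leaving out single libraries gave 0 to 3 called members for genotype with exercise, 0 to 2 for exercise in wild types, 1 to 3 for exercise in heterozygotes, 1 to 3 for exercised heterozygotes against wild types and 0 to 1 for age in wild types.

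Directions turned as follows (log2 differences). With limma-voom weights: at 3 months Comp 0.59 and Thbs4 -0.050, exercise in wild types Tnc -2.05 and Thbs1 -0.20, exercise in heterozygotes Postn -1.13, Comp -1.84, Sparc -0.19 and Ctgf -0.15, the exercise interaction Postn -0.59, Tnc 1.11, Comp -0.92 and Thbs4 0.045, exercised heterozygotes against wild types Postn -0.028 and Comp -0.65, and age in wild types Wisp1 -0.041. Without exercised heterozygote 4 and exercised wild type 1: genotype with exercise Comp -0.57, exercise in wild types Tnc -2.65, Thbs1 -0.49 and Sparc -0.16, exercise in heterozygotes Postn -1.67, Comp -2.32, Sparc -0.55 and Ctgf -0.24, the exercise interaction Postn -0.98, Tnc 1.11 and Comp -1.68, and exercised heterozygotes against wild types Postn -0.42, Comp -1.20, Sparc -0.062 and Ctgf -0.060. Without the Xist and Y-linked libraries: the exercise interaction Thbs4 0.0032, age in wild types Comp -0.32 and the age interaction Ctgf 0.28. The cause was not tested.

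The same replicate numbers did not mark paired libraries between genotypes. Over 15 pairs of libraries, heterozygote with wild type of the same age and activity, the correlation of same-numbered deviations ran from -0.25 to 0.15. Pairing across age or exercise was not examined. With the replicate number as a block no member count changed, and Postn for exercise in heterozygotes was -0.023.

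Ranges over single left-out libraries that crossed 0 were, at 3 months, Tnc -0.76 to 1.75 and Comp -0.65 to 0.36. For genotype at 6 months they were Wisp1 -0.31 to 0.22 and Ctgf -0.027 to 0.72, and with exercise Postn -0.32 to 2.49, Comp -0.57 to 3.81, Thbs1 -1.36 to 0.41 and Sparc -0.45 to 0.64. For exercise in wild types they were Postn -0.70 to 0.088, Tnc -2.65 to 1.27, Thbs1 -0.49 to 0.75, Sparc -0.16 to 0.56 and Ctgf -0.65 to 0.10. For exercise in heterozygotes they were Postn -1.64 to 0.82, Comp -2.28 to 1.90, Thbs4 -0.53 to 0.15, Sparc -0.51 to 0.38 and Ctgf -0.21 to 0.69. For the exercise interaction they were Postn -1.54 to 1.24, Tnc -2.46 to 1.45, Comp -1.65 to 2.70, Thbs4 -0.22 to 0.49 and Sparc -0.91 to 0.15. For exercised heterozygotes against wild types they were Postn -0.42 to 2.07, Comp -1.20 to 3.00, Thbs1 -0.88 to 0.13, Sparc -0.060 to 0.69 and Ctgf -0.064 to 1.26. For age they were Comp -0.0095 to 0.97 and Thbs4 -0.19 to 0.099 in wild types, Cyr61 -0.19 to 0.048 in heterozygotes and Ctgf -0.38 to 0.37 in the interaction.

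Over all genes, edgeR called 21 genes for genotype at 6 months (4 to 483 over the alternatives and single left-out libraries), 63 with exercise (13 to 200), 1511 for exercise in wild types (642 to 2803) and 1375 in heterozygotes (816 to 2877). It called 2046 for exercised heterozygotes against wild types (1095 to 3075), 534 for age in heterozygotes (181 to 1418) and 134 in wild types (32 to 328), 30 for genotype at 3 months (0 to 145), and 2 (0 to 8) and 0 (0 to 23) in the exercise and age interactions.

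Depth limits Spp1, Comp and Tnc most, since 3 counts are 0.114 to 0.251 CPM.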
